A study of Homo sapiens with 12 samples.

Results

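Distal intron clusters of coding genes are the eCLIP clusters that lay in introns of coding transcripts, in the portion the authors' annotation calls distal, away from the splice sites. In eCLIP, protein and RNA are crosslinked by UV light, the protein is precipitated, and the RNA attached to it is sequenced beside a size-matched input. A cluster is a stretch of RNA where the reads pile up. In the 2 endogenous libraries, 426856 of 616191 clusters were not mitochondrial and had more annotated bases in distal introns of coding transcripts than in any other class. Clusters of the 4 tagged libraries carry no class of their own and were included where they overlapped one of these on the same strand by at least 1 base. Over the 6 libraries, 613251 of 1620964 clusters were members.

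The cells are HEK293xT in the source labels and HEK293T or 293T in the protocols, a transformed human embryonic kidney line. GEO's design text for the series names another system, stem cells on the way to cardiomyocytes, and the conflict could not be settled from the labels. Mutant libraries came from cells given 10 µg of plasmid for myc-tagged QKI-5 carrying the substitutions K120A and R124A. Wild type libraries came from cells given the same amount of plasmid for myc-tagged QKI-5 without them, and both were precipitated with anti-MYC after 72 h of culture. Endogenous libraries came from unmodified cells precipitated with anti-QKI. All cells were crosslinked at 254 nm with 400 mJ/cm2, and each of the 3 groups had 2 immunoprecipitation libraries. Transfected cells still held their own QKI, and antibody and transfection differ together between wild type and endogenous. Nothing in the labels tells whether paired libraries came from separate cultures, so every p-value measures only the spread between libraries, which may be technical.

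QKI (Quaking) is an RNA-binding protein of the STAR family, whose KH domain recognises ACUAA and similar short RNA elements. QKI-5 is its nuclear isoform, and it regulates the splicing of exons near the sites it binds. Most intronic sequence of a long gene lies far from any splice site, so distal introns hold much of the RNA that a nuclear protein meets. No sequences are printed for these clusters, because a genome of build hg19 was not used here.

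The label was checked against gene types. Of 10377 gene names on the endogenous members, 97.3% matched a RefSeq gene, and 99% of the matched genes were protein coding. By clusters, 99.9% of those with a matched gene were in protein-coding genes, so the label held for nearly all members. All annotated bases were distal intron in 99.1% of members in either endogenous library. Among clusters just inside the class boundary, with over 50 to 60 percent of their annotated bases in distal introns, 47 of 457 and 33 of 302 were enriched in endogenous libraries 1 and 2. Among those just outside, with 40 to under 50 percent, the counts were 35 of 479 and 31 of 284.

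Enriched distal intron clusters were rare with mutant QKI-5. Over all listed distal clusters they were of similar frequency with wild type QKI-5 and endogenous QKI. Over clusters with a log2 fold above 0, the wild type share was the lower of the 2. A cluster was counted as enriched when the authors' log2 fold of immunoprecipitation over input was at least 3 and their −log10 p was at least 3. Mutant library 1 had 12 enriched among 27643 distal intron clusters (0.0434%), beside 0.0405% of all its clusters. Mutant library 2 had 94 of 30923 (0.304%), beside 0.304% of all its clusters. Wild type library 1 had 3028 of 61436 (4.93%), beside 2.07% of all its clusters. Wild type library 2 had 3215 of 66393 (4.84%), beside 1.89%. Neither mutant library came near the wild type libraries, and the mutant libraries differed between themselves by more than their 95% exact binomial intervals, which ran over 0.0224% to 0.0758% and over 0.246% to 0.372%. Endogenous library 1 had 11307 of 268244 enriched (4.22%), beside 4.22% of all its clusters. Endogenous library 2 had 8752 of 158612 (5.52%), beside 5.39%. The endogenous libraries lay on either side of the wild type pair. Members of the tagged libraries had to overlap an endogenous cluster, which 39.6% and 34.8% of all wild type clusters did, and the share over all tagged clusters includes the rest. Of the enriched clusters, 38 of 94 and 589 of 829 in mutant libraries and 214 of 4698 and 462 of 5171 in wild type libraries overlapped no annotated endogenous cluster, and these stand outside every class.

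The enriched share averaged 0.174% ± 0.184 in mutant libraries and 4.89% ± 0.061 in wild type libraries (SD, n = 2 each). The difference of -4.71 percentage points exceeded the spread between libraries. An exact two-sided permutation test gave p = 0.333, which is the smallest value that 2 libraries against 2 allow. Wild type libraries averaged 4.89% ± 0.061 and endogenous libraries 4.87% ± 0.921 (SD, n = 2 each). Their difference of 0.019 percentage points was within the spread between libraries (exact two-sided permutation p = 1.0). Wild type clusters were listed only where the fold was above 0 on the log2 scale, while 98334 and 14066 endogenous members were at or below 0. Over clusters above 0 the wild type share of 4.89% compared with an endogenous share of 6.35% ± 0.424 (SD, n = 2), a difference of -1.47 percentage points (exact two-sided permutation p = 0.333).

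**Figure D1:**
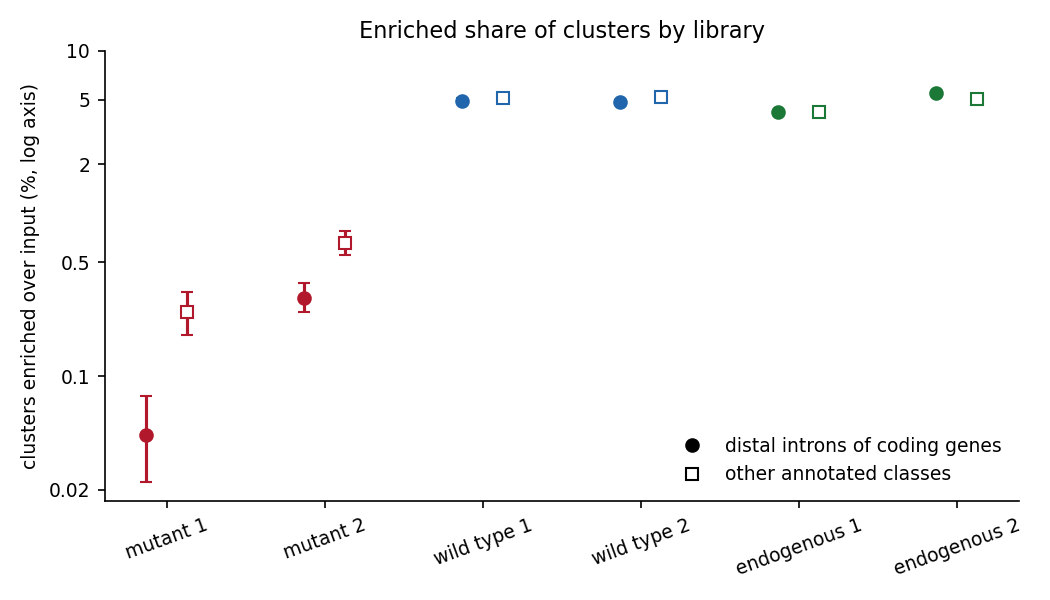
Percent of clusters enriched over input (vertical log axis) in each library, for distal introns of coding genes (filled circles) and for all other annotated non-mitochondrial clusters (open squares). Bars are 95% exact binomial intervals and cover counting error only. Mutant libraries lie at 0.0434% and 0.304% for distal introns, and the 4 other libraries between 4.22% and 5.52%.

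Compared with the other annotated clusters of the same library, distal intron clusters had a lower enriched share in the tagged libraries and a higher one in the endogenous libraries, and the difference over all 6 libraries did not pass the test. The distal share minus the share of the other classes was -0.202 and -0.355 percentage points in mutant libraries 1 and 2. It was -0.181 and -0.352 in wild type libraries 1 and 2, and 0.0121 and 0.446 in endogenous libraries 1 and 2. The mean was -0.105 ± 0.302 (SD, n = 6), with an exact two-sided sign-flip permutation p of 0.438. At a minimum log2 fold of 2 the mean was -0.78, and at a minimum −log10 p of 5 it was -0.24, each with an exact sign-flip permutation p of 0.0625. In the mutant libraries, where few clusters of any class passed, the distal share was 0.0434% and 0.304% against 0.246% and 0.659% in the other classes, and the intervals of the 2 shares were separate in each library. Mean enriched shares in wild type were 28.1 times those in the mutant for distal clusters and 11.4 times for the other classes, a contrast that was not tested.

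The proximal introns of the same kind of gene are the intronic sequence nearer the splice sites. Against them the distal share was lower in 6 of 6 libraries, but in mutant library 1 the sign was not resolved. There 3 of 4343 proximal and 10 of 27601 distal clusters were enriched. Their exact binomial intervals overlapped, at 0.0142% to 0.202% and 0.0174% to 0.0666%. The distal sets of the tagged libraries were slightly smaller here than the member sets above. The permutation p below rests on the sign in all 6 libraries. The mean difference was -1.12 percentage points, from -1.99 to -0.0328, with an exact two-sided sign-flip permutation p of 0.0312, the smallest that 6 libraries allow. Over the 3 class comparisons made, the Benjamini-Hochberg adjusted p of this permutation test was 0.0938, so it did not pass after adjustment. Proximal intron clusters were enriched at 5.84% and 6.07% in wild type libraries 1 and 2, and at 6.21% and 7.35% in endogenous libraries 1 and 2. Against distal introns of noncoding transcripts the mean difference was 0.0257 percentage points (exact two-sided sign-flip permutation p = 0.938, adjusted p = 0.938).

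Distal introns supplied most of the enriched clusters of known class in wild type and endogenous libraries, near their share of all annotated clusters. In mutant libraries they supplied less than that share. They held 67.5% and 68.3% of the annotated enriched clusters in wild type libraries 1 and 2, and 69.9% and 70.2% in endogenous libraries 1 and 2. In mutant libraries 1 and 2 the shares were 21.4% and 39.2%. Of all annotated clusters, enriched or not, distal ones made up 60.7% and 58.3% in mutant and 68.3% and 69.8% in wild type libraries, against 69.8% and 68.4% in endogenous libraries. The authors' deposited reproducible peaks, 1 list for each pair of libraries, were not limited to peaks of known class. Their distal shares are therefore not like for like with those above. Of all clusters in mutant libraries 1 and 2, of known class or not, 11.9% and 11.3% were distal. At 18.2%, the mutant peak list was not below that share. Of the peaks in the authors' deposited table, 10 of 55 mutant, 2370 of 3671 wild type and 8636 of 12409 endogenous peaks overlapped a distal intron cluster. Their median log2 fold in the authors' deposited table was 4.77, 3.93 and 4.07 in the same order.

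Enriched distal clusters of the wild type and endogenous libraries were most numerous at the lowest folds. A log2 fold from 3 to 4 was held by 58.7% and 58.0% of the enriched distal clusters in wild type libraries and by 52.2% and 45.7% in endogenous libraries. A fold of at least 6 was held by 3.7% and 4.29% in wild type and by 4.69% and 5.22% in endogenous libraries. The median length of an enriched distal cluster was 102 and 104 bases in wild type and 113 and 109 bases in endogenous libraries. Distal clusters that were not enriched were shorter, at 68 and 71 bases in wild type and 55 and 54 bases in endogenous libraries. Cluster length, read depth and the −log10 p are not independent, and their part in this difference was not tested.

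Enriched distal clusters recurred between the libraries of wild type and of endogenous. An enriched distal cluster of one wild type library overlapped an enriched cluster of the other in 57.7% and 55.3% of cases, and the endogenous shares were 66.4% and 76.7%. In the other annotated classes the shares were 59.8% and 58.2% in wild type libraries, against 68.0% and 79.1% in endogenous libraries. In the mutant, 7 of 12 enriched distal clusters of library 1 and 7 of 94 of library 2 recurred, beside 17 of 44 and 17 of 146 in the other classes. Overlapping enriched distal clusters were merged, and a merged stretch with a contribution from both libraries of a group was called a locus. There were 4 loci in 3 genes in the mutant, 1602 loci in 1163 genes in wild type and 5708 loci in 2534 genes in endogenous.

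Most wild type loci were also endogenous loci, while most endogenous loci did not pass in wild type. Of the 1602 wild type loci, 1087 (67.9%) overlapped an endogenous locus. Of the 5708 endogenous loci, 1102 (19.3%) overlapped a wild type locus. By gene, 978 genes were shared, which is 84.1% of the wild type genes and 38.6% of the endogenous genes. For loci of the other annotated classes the overlap was near these values, with 518 of 782 wild type loci (66.2%) in endogenous loci and 526 of 2351 endogenous loci (22.4%) in wild type loci. Endogenous libraries 1 and 2 had an enriched cluster at 75.2% and 72.2% of the distal wild type loci. A listed endogenous cluster at a wild type locus is given by the membership rule and carries no information.

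The endogenous loci were chosen without the tagged libraries, so they gave a set of sites on which mutant and wild type could be compared. Mutant libraries 1 and 2 listed a cluster at 11% and 10.8% of the 5708 endogenous loci. Wild type libraries 1 and 2 listed one at 87.6% and 84.8%. An enriched cluster was present at 3 and 5 loci in the mutant libraries (0.0526% and 0.0876%), against 1665 and 1499 loci in the wild type libraries (29.2% and 26.3%). The groups were far apart on both counts. At loci with a listed cluster, the median log2 fold was 0.79 and 0.84 in mutant libraries and 2.66 and 2.56 in wild type libraries. The group means differed by -1.79 (exact two-sided permutation p = 0.333, the smallest this design allows). A tagged list holds only folds above 0, so the mutant median covers only the loci where a cluster was above input.

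Wild type enrichment followed the strength of the endogenous locus, and mutant enrichment stayed at or near 0 throughout. At the 2220 loci with a mean endogenous log2 fold from 3 to 4, mutant libraries had no enriched cluster, and 0 of 2220 allows a share of up to 0.135% (3 counts of the total), or 0.166% by the exact two-sided interval drawn in the plot by fold. At the same loci wild type libraries had an enriched cluster at 14.3% and 13.1%. From 5 to 6 (728 loci), 0.137% in each mutant library compared with 57.6% and 54.0% in the wild type libraries. At 7 or more (74 loci), 0% and 1.35% in mutant libraries compared with 94.6% and 93.2% in wild type libraries. A listed but not necessarily enriched mutant cluster was present at 31.1% and 40.5% of these 74 strongest loci, against 10.2% and 10.4% of the weakest.

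**Figure D2:**
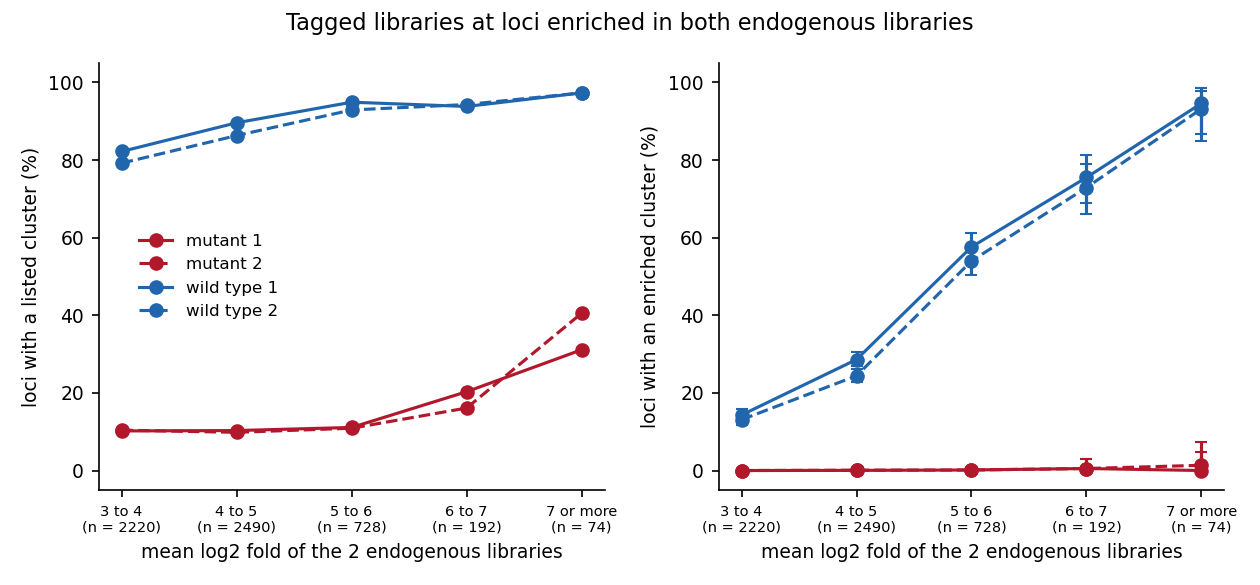
Percent of the 5708 endogenous distal intron loci with a listed cluster (left) and with an enriched cluster (right) in each mutant and wild type library, by mean log2 fold over input in the 2 endogenous libraries. Bars on the right are 95% exact binomial intervals. Wild type enriched shares run between 13.1% and 94.6% over the bins, and mutant enriched shares do not exceed 1.35%.

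The strongest wild type loci lay in genes of varied function. Among the 10 leading ones, the locus of ARHGAP24 ranked 4 and was also enriched in both mutant libraries. It is described with the mutant loci below. In RAB7A, which encodes a small GTPase of late endosomes, the locus at chr3:128470955-128471162 on the plus strand had log2 folds of 1.93 and 1.98 in mutant and 9.51 and 9.44 in wild type libraries, against 7.96 and 9.64 in endogenous libraries. In MICAL3, which encodes an actin-oxidising monooxygenase, the locus at chr22:18359511-18359842 on the minus strand had no listed cluster in mutant library 1 and 1.28 in mutant library 2. Its wild type folds were 9.11 and 9.5 and its endogenous folds 9.14 and 9.33. Neither mutant library overlapped the other libraries at either locus.

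In KDM5A, a histone demethylase gene, the locus at chr12:441829-442020 had 0.61 in mutant library 1 and no listed cluster in mutant library 2. Its wild type folds were 8.3 and 8.62, and its endogenous folds 8.63 and 7.75. SLC7A11, the cystine and glutamate exchanger, had 1.69 in mutant library 2 only, against 7.36 and 8.67 in wild type libraries at chr4:139161801-139161921. The loci in COL13A1, a transmembrane collagen, EXT1, a heparan sulfate polymerase, CELF1, a splicing regulator, ZNF423, a zinc finger factor, and CLYBL, a mitochondrial lyase, had no listed cluster in either mutant library. Their wild type folds lay between 6.28 and 8.53, and their endogenous folds between 6.41 and 7.93. The wild type and endogenous ranges overlapped at each of these loci except that of COL13A1, where wild type had 7.22 and 7.67 and endogenous 7.74 and 7.93.

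The endogenous group had its own leading loci, at several of which wild type folds were lower. ZNF12, a zinc finger gene, had 7.55 and 6.74 in wild type libraries, against 9.27 and 9.42 in endogenous libraries at chr7:6735881-6736027. LYRM4, an iron-sulfur cluster assembly factor, had 6.1 and 6.49 in wild type libraries, against 8.81 and 9.16 in endogenous libraries. CNOT4, a ubiquitin ligase tied to mRNA deadenylation, had 5.05 and 4.88 in wild type libraries, against 8.9 and 8.08 in endogenous libraries. PFDN1, a prefoldin subunit, had 4.41 and 4.95 in wild type libraries, against 7.57 and 8.74 in endogenous libraries. NBPF1 and ATP11A, a phospholipid flippase, had wild type folds between 3.94 and 6.42 and endogenous folds between 8.21 and 8.83. NBPF1 belongs to a family of near-identical copies, so its reads may be split or shared among them. At these 6 loci no wild type value reached an endogenous one, but the loci were picked for high endogenous folds.

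The 4 mutant loci lay in 3 genes, and most of them were not particular to the mutant. In ARHGAP24, a Rac GTPase-activating protein, 2 adjoining loci were enriched, of which the leading one covered 37 bases at chr4:86875795-86875831. It had log2 folds of 7.54 and 6.15 in mutant and 8.56 and 7.74 in wild type libraries, against 7.36 and 6.58 in endogenous libraries. The mutant and endogenous ranges overlapped there, and both wild type values lay above them. All 5 distal clusters of ARHGAP24 were enriched in each mutant library. RNU6-49P, a U6 small nuclear RNA pseudogene whose name the annotation gave to an intronic cluster, had 4.41 and 4.19 in mutant and 5.68 and 4.19 in wild type libraries, against 5.61 and 5.24 in endogenous libraries. Reads of near-identical U6 copies cannot be told apart there. PID1, a phosphotyrosine-interaction protein, had 4.07 and 4.11 in mutant and 2.0 and 3.61 in wild type libraries, against 0.16 and 1.15 in endogenous libraries. The mutant values lay above all others there, but the locus was picked for enrichment in the mutant. Among genes with at least 20 distal clusters in each mutant library, the largest enriched share was 2.5%, and 165 of 177 such genes had none. The leading 5, BCOR, IGF2BP3, CAMTA1, C2orf48 and RPTOR, had no enriched distal cluster in mutant library 1 and 1 or 2 in mutant library 2.

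**Figure D3:**
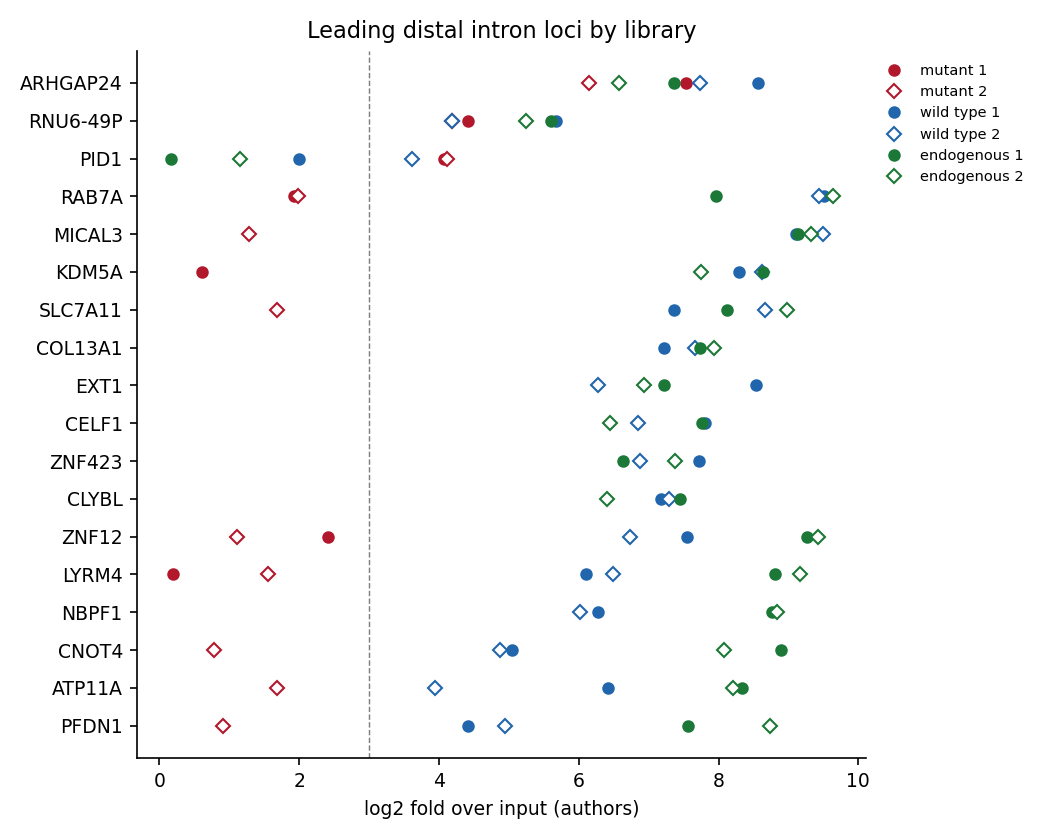
Authors' log2 fold over input (horizontal axis) in each library at the 18 leading distal intron loci, 1 row per gene, first the 3 mutant, then the wild type and then the endogenous loci. A missing point means that no cluster was listed, and the dashed line marks a log2 fold of 3. Mutant points lie left of the line except in ARHGAP24, RNU6-49P and PID1.

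Single regions were tested with limma on the authors' log2 folds, over regions with a cluster in all 4 libraries of a comparison and with Benjamini-Hochberg adjustment over all classes. Between mutant and wild type, 5356 regions could be tested, of which 1688 were in distal introns. None of the distal regions was higher in the mutant at an adjusted p of 0.05, against 0.0187% of all regions. At an unadjusted limma p below 0.05, 67 distal regions were higher and 143 lower in the mutant. Counts over all regions at that cut were not taken. Lower in the mutant were 21 distal regions, which is 1.24%, against 0.597% of all regions. A distal region overlaps an endogenous cluster by rule, while a region of the whole set need not. The distal and total values are therefore not like for like. Each of the 21 lay in a gene of its own. The median difference was 0.07 over distal regions and 0.26 over all regions. A region enters only if the mutant has a cluster above input in both libraries, so sites with no mutant cluster are outside this test. Leaving out either mutant library left 1 distal region called, and leaving out wild type library 1 or 2 gave 35 or 33.

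RAB7A had the largest decrease, with a mutant minus wild type difference of -7.52 ± 0.47 (SE, limma adjusted p = 9.92e-04). Its region was the locus described above. MRPL34, a mitochondrial ribosomal protein gene, had 0.02 and 0.05 in mutant and 5.89 and 6.10 in wild type libraries at chr19:17413111-17413268, a difference of -5.96 ± 0.48 (SE, limma adjusted p = 0.00327). GPHN, which encodes the synaptic scaffold gephyrin, had 1.19 and 0.11 in mutant and 7.05 and 5.84 in wild type libraries at chr14:67040928-67041049. FAF1, an adaptor for ubiquitinated proteins, had 2.19 and 1.84 in mutant and 6.65 and 6.35 in wild type libraries at chr1:51257080-51257203. The regions of LYRM4, ZNF12, ZFP1, a zinc finger gene, and LRRC16A, a regulator of actin capping, differed by -5.42, -5.39, -5.07 and -4.74. The limma adjusted p of GPHN, FAF1 and these 4 was between 0.0102 and 0.0119. In all 8 regions both mutant libraries lay below both wild type libraries. Without mutant library 1 the limma adjusted p of 7 of the 8 lay between 0.0786 and 0.0914, and without mutant library 2 between 0.0523 and 0.13. With 1 mutant library left, that library is assumed to vary like the wild type pair, and a call lost there does not show a smaller difference, since MRPL34 stayed at -5.95 and -5.97.

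Between wild type and endogenous, 29849 regions could be tested, of which 21255 were in distal introns. Higher in wild type were 103 distal regions (0.485%), against 0.536% of all regions. Lower in wild type were 1628 distal regions (7.66%), against 7.63% of all regions. The median difference was -0.65 over distal regions and -0.61 over all regions, so folds were lower in wild type over the whole table. With each library centred on its median, 243 distal regions were higher in wild type and 267 lower. The distal shares were close to those over all regions in both directions. Without wild type library 1 or 2, 774 or 373 distal regions were called, and without endogenous library 1 or 2, 1028 or 1085.

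The called distal regions that were lower in wild type lay in 1125 genes, and those that were higher lay in 93. FHIT had the most lower regions, with 12, and CMSS1, ROBO1 and WWOX had 10 each. The tested regions of each gene were not counted, and FHIT had 912 and 684 distal clusters in endogenous libraries 1 and 2. These counts therefore do not show a decrease particular to these genes. The largest decrease was in FAM120B, a transcriptional coactivator gene, with 1.36 and 1.64 in wild type libraries, against 6.62 and 8.28 in endogenous libraries at chr6:170707751-170708149. The difference was -5.95 ± 0.70 (SE, limma adjusted p = 0.00266). NKD1, an inhibitor of Wnt signalling, had 2.46 and 3.41 in wild type libraries, against 7.78 and 8.41 in endogenous libraries. RAD51B, a homologous recombination factor, had 0.77 and 1.29 in wild type libraries, against 6.32 and 5.98 in endogenous libraries. BCL2L11, the apoptosis activator BIM, had 2.41 and 1.12 in wild type libraries, against 6.85 and 6.76 in endogenous libraries. Both wild type libraries lay below both endogenous libraries in each of these genes.

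NUMB, a Notch inhibitor and a reported splicing target of QKI, had 3.22 and 2.27 in wild type libraries, against 7.52 and 7.63 in endogenous libraries at chr14:73784764-73785035, a difference of -4.83 ± 0.66 (SE, limma adjusted p = 0.0033). VEZT, an adherens junction gene, FMNL2, a formin that elongates actin filaments, and PNPT1, a mitochondrial ribonuclease, differed by -4.98, -4.88 and -4.88. In the other direction, CTTNBP2NL had 5.34 and 5.73 in wild type libraries, against 2.65 and 0.89 in endogenous libraries at chr1:112951786-112951877, a difference of 3.77 ± 0.71 (SE, limma adjusted p = 0.0101). THAP4 had 6.27 and 6.50 in wild type libraries, against 3.01 and 2.56 in endogenous libraries. SECISBP2, which recodes stop codons for selenocysteine, had 4.73 and 4.87 in wild type libraries, against 1.26 and 1.15 in endogenous libraries. SLIRP, a mitochondrial RNA stability factor, KLRD1, a natural killer cell receptor, SPAG9, a kinase scaffold, and ATP5L, an ATP synthase subunit, differed by 3.66, 3.45, 3.40 and 3.30. The largest increase, of 4.07, was at chr5:139839376-139839551, where the annotation gave no single gene name. All 16 named regions kept their call after centring.

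Enriched distal clusters of the wild type and endogenous libraries were spread over many genes. In mutant libraries 1 and 2 they lay in 7 and 80 genes, and ARHGAP24 held 5 of the 12 in library 1 and 5 of the 94 in library 2. In wild type libraries 1 and 2 they lay in 1726 of 7210 and 1804 of 7400 genes with a distal cluster (23.9% and 24.4%). In endogenous libraries 1 and 2 they lay in 3282 of 9967 and 2958 of 8923 genes (32.9% and 33.2%). A gene with 1 enriched distal cluster was the commonest case in wild type libraries, with 61.3% and 60.2% of the enriched genes, and made up 40.5% and 45.6% in endogenous libraries. Genes with 10 or more numbered 4 and 5 in wild type libraries and 207 and 133 in endogenous libraries, where they held 30.2% and 24.1% of the enriched distal clusters.

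The 10 leading genes of a library held 3.67% and 4.05% of the enriched distal clusters in wild type libraries and 3.87% and 4.29% in endogenous libraries. The same genes held 1.56% and 1.31% of all distal clusters in the wild type libraries, against 1.41% and 2.09% in the endogenous libraries. Those genes were chosen for their counts. In the partner library, which did not choose them, they held 3.52% and 3.1% of the enriched clusters in wild type and 4.0% and 3.77% in endogenous. To reach 50 percent of the enriched distal clusters took 448 and 465 genes in wild type libraries and 514 and 494 genes in endogenous libraries. For all distal clusters the numbers were 906 and 917 in wild type libraries, against 962 and 914 in endogenous libraries. Enriched clusters are far fewer than all distal clusters, so these gene numbers are not comparable between them. As a share of the genes that held any, they were 26.0% and 25.8% in wild type libraries, against 15.7% and 16.7% in endogenous libraries, for enriched clusters. For all distal clusters they were 12.6% and 12.4% in wild type libraries, against 9.65% and 10.2% in endogenous libraries.

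**Figure D4:**
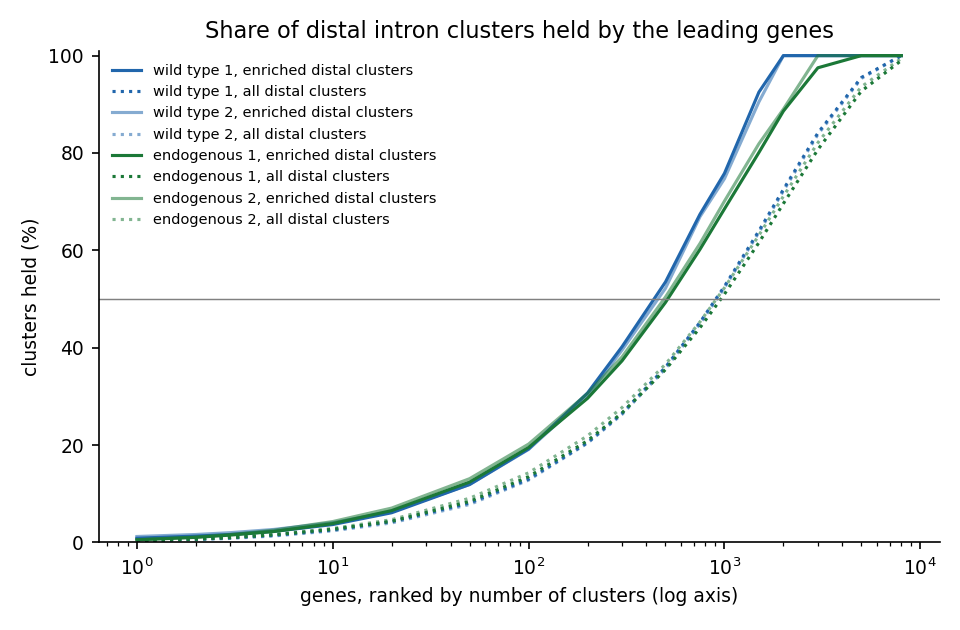
Cumulative percent of enriched distal intron clusters (solid lines) and of all distal intron clusters (dotted lines) held by genes ranked by their number of such clusters (horizontal log axis), for wild type and endogenous libraries. The solid lines cross 50 percent between 448 and 514 genes and the dotted lines between 906 and 962 genes.

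Genes with more distal clusters had more enriched ones. Across genes, the Spearman correlation between the number of distal clusters and the number of enriched ones was 0.499 and 0.507 in wild type libraries (7210 and 7400 genes) and 0.645 and 0.643 in endogenous libraries (9967 and 8923 genes). Genes are not independent replicates, and both counts share a library and grow with intron length and expression. The median gene had 4 distal clusters in each wild type library, and the median gene with an enriched one had 13 and 14. In endogenous libraries the medians were 10 and 7 for all genes and 37 and 25 for genes with an enriched cluster.

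A wild type locus was more frequent in genes with more endogenous loci. Of 8513 genes with a distal cluster in both endogenous libraries, 5979 had no endogenous locus, and 178 of these had a wild type locus (2.98%). The share was 26% of the 1375 genes with 1 endogenous locus, 47% of the 909 genes with 2 to 4, 73.5% of the 204 genes with 5 to 9 and 93.5% of the 46 genes with 10 or more. The median number of endogenous distal clusters per gene was 7, 23, 47.5, 104 and 294 over the same 5 classes, so these classes also differ in how much intronic RNA was covered. The 250 genes with 5 or more endogenous loci held 33.7% of them.

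Loci of the same gene were usually far apart. The gap between neighbouring loci of a gene had a median of 25.6 kb in wild type (425 gaps) and 13.7 kb in endogenous (3133 gaps). Gaps over 10 kb made up 68.9% in wild type and 55.8% in endogenous, and gaps within 500 bases made up 13.2% and 19.9%. To count separate sites, enriched clusters within 500 bases were joined, and sites with both libraries of the group were kept.

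The genes with the most endogenous loci had sites spread over long stretches of intron. FHIT, a nucleotide hydrolase gene at a common fragile site, had 3 wild type loci, and 31 endogenous loci at 30 sites over 1469.3 kb. Its enriched distal clusters numbered 0 of 152 and 0 of 155 in mutant and 10 of 201 and 12 of 190 in wild type libraries, against 60 of 912 and 48 of 684 in endogenous libraries. The endogenous shares of 6.58% and 7.02% stood beside 4.22% and 5.52% over all distal clusters of those libraries. WWOX, an oxidoreductase gene at another fragile site, had 20 endogenous loci at 20 sites over 652 kb. RAD51B had 23 loci at 21 sites over 755 kb. CMSS1 had 26 loci at 20 sites, and GMDS, a GDP-mannose dehydratase gene, had 21 loci at 15 sites. ROBO1, a receptor of axon guidance, had 20 loci at 15 sites over 820 kb, and SLIT2, which encodes a ligand of that receptor, had 19 loci at 15 sites over 325 kb. ADK, adenosine kinase, had 18 loci at 15 sites over 443 kb. Among the genes with most wild type loci, PRRC2C had 5 wild type and 4 endogenous loci, and ZNF644, a zinc finger gene, had 5 wild type and 3 endogenous loci.

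In other genes most enriched clusters lay at a few sites. INPP5A, an inositol phosphatase gene, had 1 wild type locus, and 20 endogenous loci that joined into 2 sites over 6.2 kb. Its enriched distal clusters numbered 0 of 22 and 0 of 23 in mutant and 1 of 14 and 2 of 22 in wild type libraries, against 57 of 146 and 33 of 103 in endogenous libraries. MICAL3 had 9 wild type loci at 2 sites and 19 endogenous loci at 4 sites. Its enriched distal clusters numbered 0 of 14 and 0 of 19 in mutant and 26 of 34 and 39 of 45 in wild type libraries, against 52 of 69 and 49 of 67 in endogenous libraries. CANT1, a calcium-activated nucleotidase gene, had 12 loci at 2 sites over 6.25 kb, with 26 of 27 and 22 of 22 distal clusters enriched in endogenous libraries.

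PRDM15, a zinc finger gene, had its 5 wild type loci at 1 site, with 6 of 7 and 8 of 8 distal clusters enriched in wild type libraries, against 9 of 17 and 7 of 11 in endogenous libraries. YTHDF3, an m6A reader gene, and PLEKHG4B, a guanine nucleotide exchange factor gene, each had 6 endogenous loci at 1 site, and were chosen after their values were seen. YTHDF3 had 1 wild type locus and PLEKHG4B had none. Of the 9 genes with 5 or more wild type loci, 3 had them at 1 or 2 sites, and of the 250 genes with 5 or more endogenous loci, 15 did.

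**Figure D5:**
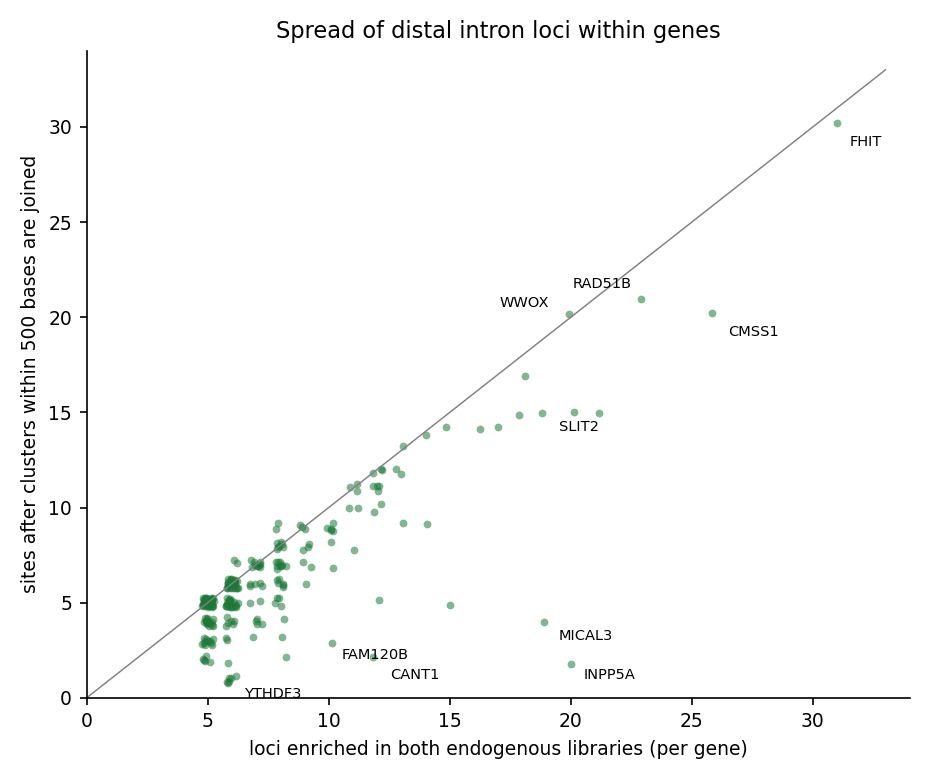
For each of the 250 genes with 5 or more endogenous distal intron loci, the number of loci (horizontal axis) against the number of sites left after enriched clusters within 500 bases were joined (vertical axis), with a small random offset on both axes to separate equal points. Genes near the grey line of equal numbers, such as FHIT and WWOX, have loci far apart, and INPP5A, MICAL3, CANT1 and YTHDF3 lie well below it. Joining can add a site by bringing together clusters of the 2 libraries that did not overlap, so some points lie above the line.

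Genes also differed in how large a part of their distal clusters was enriched. Among genes with at least 20 distal clusters in each library of a group, the median enriched share was 0% over 177 genes in the mutant, 4.3% over 699 genes in wild type and 3.94% over 2221 genes in endogenous. MICAL3 led in wild type with a mean share of 81.6%, and CANT1 led in endogenous with 98.1%. DNAJB6, a co-chaperone gene, had 10 of 27 and 11 of 29 enriched in wild type libraries, against 2 of 52 and 3 of 31 in endogenous libraries. FAM120B went the other way, with 1 of 19 and 0 of 26 in wild type libraries, against 36 of 57 and 21 of 47 in endogenous libraries. RTTN, a centriole gene, had 7 of 21 and 7 of 25 in wild type libraries, against 9 of 72 and 7 of 44 in endogenous libraries. G2E3, a ubiquitin ligase gene, STXBP5, which regulates vesicle release, OCRL, a lipid phosphatase gene, and ZDHHC21, a palmitoyltransferase gene, had shares between 18.5% and 45.5% in wild type and between 14.8% and 53.3% in endogenous libraries. These genes were chosen for their shares, so the differences between groups are descriptions. Tagged lists hold only clusters above 0, endogenous totals include those at or below 0, and the gene sets differ. The shares are therefore not like for like between tagged and endogenous libraries.

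The gene lists are described beside the 8513 genes with a distal cluster in both endogenous libraries, of which 13.6% had a wild type locus and 29.8% an endogenous locus. Of 18 axon guidance and synaptic adhesion genes with such clusters, 6 had a wild type and 11 an endogenous locus. Of 22 very long and fragile-site genes, 11 had a wild type and 15 an endogenous locus. Of 25 genes for actin, microtubules and adhesion, 9 had a wild type and 17 an endogenous locus, and ARHGAP24 was the only member of any list with a mutant locus. Of 25 chromatin regulators, 12 had a wild type and 20 an endogenous locus. Of 25 membrane traffic and small GTPase genes, 12 had a wild type and 17 an endogenous locus. The shares were above those of all genes in each of these lists, but their members had medians of 49 to 247 distal clusters, against 11 over all genes. All gene lists were chosen with earlier results of these data known and hold leading genes named above. Their shares are therefore descriptions and no evidence about a kind of gene. The median share of a gene's distal clusters that were enriched in endogenous libraries was between 2.27% and 4.54% over these 5 lists, against 0% over all genes and 3.94% over genes with at least 20 distal clusters.

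Among axon guidance genes, NLGN1, a synaptic adhesion gene, had 6 wild type and 16 endogenous loci, and NRXN3, of its presynaptic partner family, had no wild type and 11 endogenous loci. Among cytoskeletal genes, the formin gene DIAPH3 had 6 wild type and 8 endogenous loci, and its relative DIAPH2 had 1 wild type and 10 endogenous loci. PTK2, focal adhesion kinase, had 3 wild type and 8 endogenous loci. Among chromatin genes, ANKRD17 had 3 wild type loci and 13 endogenous loci at 13 sites. KMT2C, a histone methyltransferase gene, had 2 wild type and 10 endogenous loci, and CHD9, a remodeller gene, had 1 and 8 in the same groups. ARID1B, which encodes a subunit of the BAF remodelling complex, had no wild type and 6 endogenous loci. The list of membrane traffic and small GTPase genes also held GPHN, the synaptic scaffold gene, with 7 wild type and 17 endogenous loci. EXOC4, an exocyst subunit gene, had 1 wild type and 9 endogenous loci. VPS13B, a lipid transfer protein gene, had 3 wild type and 8 endogenous loci, and DENND1A, a Rab exchange factor gene, had 2 wild type and 6 endogenous loci.

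Splicing regulators had a wild type locus in 5 of 20 genes (25%) and an endogenous locus in 10 (50%). RBFOX2 had no wild type and 8 endogenous loci, MBNL1 had 3 wild type and 5 endogenous loci, CELF1 had 1 wild type and 4 endogenous loci, and NOVA1 had no wild type and 3 endogenous loci. Of 19 reported QKI targets, 5 had a wild type (26.3%) and 9 an endogenous locus (47.4%). ERBB2IP, which encodes the scaffold erbin, had 1 wild type and 6 endogenous loci. MACF1, a cytoskeletal crosslinker gene, and PKM, a pyruvate kinase gene, had no wild type and 3 endogenous loci each, and those of PKM joined into 1 site. QKI itself had 3 wild type loci and 2 endogenous loci. Its enriched distal clusters numbered 3 of 10 and 5 of 10 in wild type libraries, against 3 of 91 and 5 of 61 in endogenous libraries. The enriched counts were equal, and the wild type totals hold only clusters above 0 that overlap an endogenous member. Of 10 cardiac sarcomere and calcium handling genes, 2 had a wild type (20%) and 4 an endogenous locus (40%). CAMK2D, a calmodulin-dependent kinase gene, led with 2 wild type and 4 endogenous loci, and TPM1, a tropomyosin gene, had 1 of each. ATP2A2, a calcium pump gene, and ACTN2, an actinin gene, had no wild type locus and 1 endogenous locus. The shares of splicing regulators, reported targets and cardiac genes were also above those of all genes. Their members had medians of 44.2, 31.5 and 27.8 distal clusters in the same order, against 11 over all genes. None of 12 replication-dependent histone genes, which lack introns, had a distal cluster in both endogenous libraries. Of 15 markers of neurons, glia and blood cells, types foreign to this line, 2 had a distal cluster in both endogenous libraries and none had a locus, and a cluster is no measure of expression.

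Enriched members were found on all 23 chromosomes compared in wild type and endogenous libraries, where Y was left out. The enriched share of distal clusters ran between 3.62% (chromosome 16) and 5.83% (chromosome 8) in wild type library 1, and between 3.86% (chromosome 19) and 7.02% (chromosome 22) in wild type library 2, where MICAL3 held 39 of the 74 enriched clusters of chromosome 22. In endogenous libraries 1 and 2 it was lowest on chromosome 19, at 2.52% and 2.69%, and highest at 5.32% on chromosome 21 and 6.53% on chromosome X.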

How the data were processed

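The 6 immunoprecipitation libraries were analysed, grouped by title, with inputs used only as the base of the authors' folds. The submitters' processing notes name STAR, SAMtools, cutadapt and UMI-tools, and the build hg19. The sources used here give no versions, peak caller or read depth. Clusters are normalized to input, per the file headers. Each deposited cluster has the authors' log2 fold over input and a deposited −log10 p of at most 400. The authors' deposited browser score was not used. Low folds are coarse where few reads support a cluster.

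Region classes and gene names came from the endogenous annotation, and a tagged cluster took its name from the endogenous one it overlapped most. A name was dropped where several remained. Overlaps were found with bedtools 2.31.1. At a locus, the cluster with the highest −log10 p gave a library's value. For limma 3.58.1 (R 4.3.3; lmFit and eBayes), overlapping clusters of 4 libraries were merged, those at or below 0 were left out, and a region was distal if its longest-overlapping endogenous cluster was. The limma steps were tested on simulated data. Shares have exact Clopper-Pearson intervals at 95%, for counting error only. Other tests were exact permutations over libraries.

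Named were the 10 strongest loci (1 per gene) and the 10 genes with most loci per group, the 5 genes with the largest enriched share, up to 8 regions per direction by limma, and 4 genes per list by endogenous loci. Members and lists were chosen with earlier results of these data known. Alternatives covered thresholds, membership, joining distance, scaling, filters, libraries left out and the replicate number as a block. Deviations of same-numbered libraries correlated at -0.0386 over regions of mutant and wild type and at 0.0106 over regions of wild type and endogenous, so the numbers were not taken to pair libraries. Motif shares were not analysed here.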

Additional observations from a re-analysis of the deposited data

Results flagged for a closer look

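The enriched share of distal intron clusters minus that of the other annotated classes had opposite signs in the tagged and the endogenous groups. It was -0.202 and -0.355 percentage points in mutant libraries 1 and 2, and -0.181 and -0.352 in wild type libraries 1 and 2. In endogenous libraries 1 and 2 it was 0.0121 and 0.446. Every library of both tagged groups was below 0 and both endogenous libraries were above 0, and the difference between groups was not tested. Tagged clusters took their class from an overlapping endogenous cluster, and the part of this rule in the signs was not tested.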

How the results depend on the processing

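The mutant minus wild type difference in the enriched share kept its sign under all 6 alternative thresholds and membership rules, from -6.52 (log2 fold of at least 2) to -1.99 (at least 4), and from -4.84 to -4.58 with libraries left out. The difference in median fold at endogenous loci lay between -2.33 and -1.7 under 4 alternatives and between -1.85 and -1.74 with libraries left out. The wild type minus endogenous difference in share had the other sign with a minimum log2 fold of 4 (-0.471), with a minimum −log10 p of 5 (-0.112) and over clusters above 0 (-1.47), and lay between -0.632 and 0.67 with libraries left out, and was 1.25 with a minimum log2 fold of 2 (exact permutation p = 0.333), so its sign is not settled. With the replicate number as a block, the mean differences were -4.71, 0.019 and -1.79. Distal minus other classes gave -1.12 against proximal introns, with p = 0.0312 by the sign-flip permutation test, and 0.0257 against noncoding distal introns, an alternative chosen after seeing the data. It lay between -0.216 and -0.0554 with libraries left out.

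The 10 leading genes held 2.88% (joined within 50 bases), 2.9% (within 500 bases) and 6.79% (log2 fold of at least 4) of enriched clusters in wild type, against 3.86% on average. In endogenous they held 3.55%, 3.47% and 5.27% under the same settings, against 4.08%. For mutant and wild type, limma called 38 distal regions after centring, 56 with a −log10 p of at least 3 in 2 libraries, 19 with the replicate block and 1 to 35 with libraries left out, against 21. For wild type and endogenous it called 510 after centring, 2975 with the replicate block and 373 to 1085 with libraries left out, against 1731. Joining abutting clusters, chosen after seeing the data, gave 22 and 1730. The cause of these changes was not tested. Dropping wild type library 2 took KLRD1, SPAG9 and ATP5L above the threshold, with limma adjusted p-values of 0.0717, 0.0549 and 0.08. Read depth is unknown, so absence of a cluster does not show absence of binding.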
